A study of Mus musculus with 70 samples.

Results

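Among mouse medulloblastomas of the Lazy Piggy model, 20 tumours with the highest levels of a pair of interferon-induced genes were set against 20 tumours with the lowest. They were chosen by a measured score, the summed CPM (counts-per-million, over reads on mouse genes) of Ifit1 (ENSMUSG00000034459) and Ifit3 (ENSMUSG00000074896), which encode antiviral proteins induced by interferon. Within the 29 tumours of the tamoxifen group and within the 30 of the no tamoxifen group, the 10 highest tumours were called high and the 10 lowest low. The 40 tumours come from 59 with a treatment label and from 70 tumours in all. The score is a measured value, so high and low are not an experimental treatment, and both genes are left out of every count below.

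All 40 tumours are bulk Sonic hedgehog (SHH) medulloblastomas, tumours of the cerebellar granule neuron lineage. Each carries Ptch1 and Lazy Piggy alleles with rosa26_lsl_pbert2, nestin_cre and nestin_luc_sb100, whether high or low. Lazy Piggy is a transposon with 1 round of movement by the SB100 transposase. A later round by PBERT2, a piggyBac transposase that needs tamoxifen, can follow. Nestin drives SB100 and Cre, and Cre removes the stop before PBERT2. The group with tamoxifen is labelled TAM+ and the one without it TAM-. Ages and doses are not given in the labels. Nor is it stated that each tumour is from its own mouse, so a p-value here reflects only how these libraries vary. Libraries held 5869618 to 8667344 reads. Hedgehog genes, targets together with pathway members such as Smo and Sufu, were read in all 40 tumours. The summed CPM of the 17 genes was 3271 to 6992 in the high and 3200 to 6775 in the low tumours.

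Interferons are secreted cytokines that alert cells to infection. Type I interferons bind the receptor pair Ifnar1 and Ifnar2, and the kinases Jak1 and Tyk2 pass the signal on to Stat2 and Irf9, parts of a complex that switches on genes whose promoters hold the interferon-stimulated response element. Interferon gamma has a receptor of its own and induces many guanylate-binding proteins and antigen presentation genes. Microglia, the macrophages of the brain, are known to respond to interferons.

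The score ran from 10.0 to 20.9 CPM in the high and from 3.38 to 5.91 CPM in the low tumours with tamoxifen. Without tamoxifen it ran from 5.15 to 17.6 CPM in the high and from 0.664 to 2.24 CPM in the low tumours. The lower high tumours without tamoxifen therefore scored like the upper low tumours with it, since ranks were taken within each treatment group. Few reads stand behind a score, 68 to 161 in the high tumours with tamoxifen and 5 to 18 in the low tumours without it. At the upper limit with tamoxifen, the last tumour inside had 10.04 CPM (exact 95% Poisson interval 7.80 to 12.7, counting error only) and the first outside 10.03 CPM (7.87 to 12.6). At the lower limit with tamoxifen these were 5.91 CPM inside (4.38 to 7.79) and 6.15 CPM outside (4.52 to 8.18). Without tamoxifen, 5.15 CPM (3.59 to 7.16) was inside and 5.07 CPM (3.67 to 6.83) outside the high group. At the lower limit 2.24 CPM (1.32 to 3.53) was inside and 2.83 CPM (1.75 to 4.33) outside. The tumours on both sides of each limit overlapped within counting error.

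**Figure D1:**
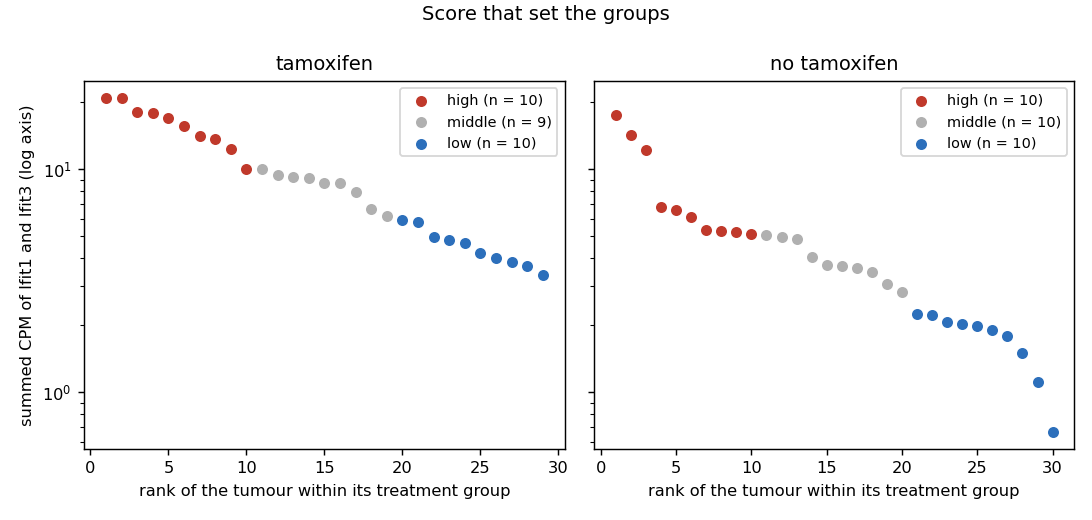
Score of each of the 59 labelled tumours (summed CPM of Ifit1 and Ifit3, log axis) against its rank within its treatment group; colour gives high, middle or low. With tamoxifen the tumours form a continuous range. Without it 3 tumours lie apart above 12 CPM, and the rest of that high group, between 5.15 and 6.75 CPM, runs on into the middle tumours.

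Sex and the date in the title were unevenly spread over the levels, short of the threshold. Of the high tumours 13 of 20 were female, by their Y gene reads, and of the low tumours 6 of 20 (Fisher's exact test, two-sided, p = 0.0562). Titles with an earlier date, before July of year 16 as they write it, were those of 5 of 20 high and 11 of 20 low tumours (Fisher's exact test, two-sided, p = 0.105). Libraries held 5869618 to 8323348 reads in the high and 6256214 to 8667344 in the low tumours (two-sided permutation test of the mean within treatment, p = 0.204). The part of sex and title date in the results was not tested beyond the covariate fits given below.

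The question the comparison answers is which genes go with the interferon score in these tumours. Of 14143 genes tested with edgeR, 22 (0.156%) were higher in the high tumours at an adjusted p of 0.05 and 1 (0.00707%) was lower. The median log2 fold change of all genes was 0.00447. Of all 14143 genes, 7244 had a value above 0, and 818 (5.78%) were higher at an unadjusted p under 0.05. The counts for gene lists below are to be read beside these. The 22 genes that rose are mostly known interferon-induced genes. They include the transcription factors Irf7 and Irf9, the RNA sensor Ddx58, 9 antiviral effectors and 3 interferon-induced GTPases. The heat map of these genes shows them tumour by tumour. Since the rule used Ifit1 and Ifit3 of these same tumours, the p-values describe genes that move with the score, not a tested condition.

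**Figure D2:**
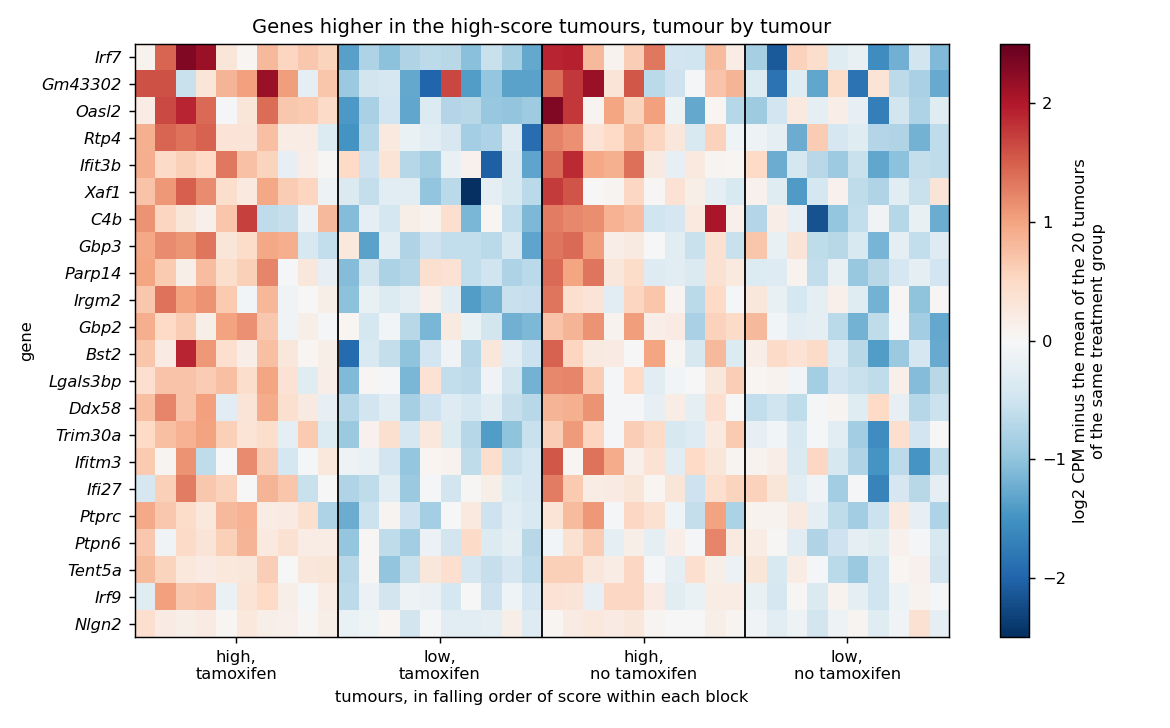
Log2 CPM of the 22 genes that were higher in the high tumours, each minus the mean of the 20 tumours of the same treatment group (colour), in 40 tumours (columns, in falling order of score within each block) and genes (rows, by fold change). High tumours are mostly red and low tumours mostly blue in both treatment groups, with single tumours that depart from their block.

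The ligands themselves were hardly read. Of 11 interferon genes listed, 8 had a row, none passed the filter on low counts, and 5 of the 8 were at 0 in all 40 tumours. Ifnb1, interferon beta, reached 0.129 CPM in the high and 0.118 CPM in the low tumours, with a median of 0 in both. Ifng, interferon gamma, reached 0.242 CPM in the high and 0.115 CPM in the low tumours, also with medians of 0. Each of these highest values is 1 or 2 reads, so differences in the ligands were not detectable at this depth.

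The receptors did not pass. Ifnar1, a chain of the type I receptor, had 74.4 to 127 CPM (median 90.9) in the high and 83.7 to 114 CPM (median 95.01) in the low tumours, with a log2 fold change of -0.02 ± 0.05 (SE). For Ifnar2, the other chain, the change was 0.09 ± 0.10. None of the 5 tested receptor genes passed, and their median log2 fold change was -0.02.

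Of the JAK-STAT transducers 1 of 7 tested rose, all 7 values were above 0, and the median was 0.20. That gene is Irf9 (ENSMUSG00000002325), the DNA-binding partner of Stat2. Irf9 had 13.5 to 37.6 CPM (median 20.4) in the high and 11.5 to 18.2 CPM (median 14.6) in the low tumours. Its groups overlap, with 17 of 20 high tumours above the median of the low ones, and the log2 fold change was 0.50 ± 0.10 (SE; adjusted p = 0.0151 in edgeR). Its call was lost with sex as a covariate (log2 fold change 0.45, adjusted p = 0.0573 in edgeR). Stat2 did not pass, with a change of 0.20 ± 0.11 (adjusted p = 0.457 in edgeR).

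Irf7 (ENSMUSG00000025498), the factor that amplifies type I interferon responses, had the highest fold change of the genes that passed. With tamoxifen it had 2.32 to 12.0 CPM (median 3.54) in the high and 0.709 to 1.43 CPM (median 1.17) in the low tumours. Without tamoxifen it had 0.542 to 4.11 CPM (median 1.59) in the high and 0 to 1.43 CPM (median 0.466) in the low tumours. The groups do not overlap with tamoxifen and overlap without it, and 18 of 20 high tumours lay above the low median. The log2 fold change was 1.99 ± 0.29 (SE; adjusted p = 0.000486 in edgeR). Irf7 had a median of 0.847 CPM over the 20 low tumours, so its fold change rests on few reads there. It was the 1 of 6 tested IRF genes to pass, and all 6 values were above 0, with a median of 0.16. Irf1, a target of interferon gamma, had 0.06 ± 0.15 and Irf8, a factor of microglia and other myeloid cells, 0.26 ± 0.12.

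Sensors of foreign nucleic acids were above 0 in 17 of 17 tested, with a median of 0.27, and 1 passed. Ddx58, the RNA sensor RIG-I, had 3.79 to 14.8 CPM (median 7.54) in the high and 2.66 to 6.56 CPM (median 3.99) in the low tumours. The groups overlap between 3.79 and 6.56 CPM, and 18 of 20 high tumours lay above the low median. Its log2 fold change was 0.88 ± 0.14 (adjusted p = 0.000891 in edgeR). Ifih1, the sensor MDA5, had 0.83 ± 0.20 and did not pass (adjusted p = 0.0662 in edgeR).

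Antiviral effectors held 9 of the 22 genes that rose. The list has 44 tested genes, with 41 of 44 values above 0 and a median of 0.35. At an unadjusted p under 0.05, 25 of 44 were higher, beside 818 of all 14143 genes (5.78%). The list holds Oasl2, Rtp4, Lgals3bp, Parp14, Xaf1, Trim30a, Bst2, Ifi27 and Ifitm3 among its risen genes. It was chosen with earlier results of these tumours known, so its count is not independent evidence.

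Oasl2 (ENSMUSG00000029561), a 2'-5' oligoadenylate synthetase-like gene, had 2.90 to 12.0 CPM (median 4.94) in the high and 0.945 to 2.33 CPM (median 1.54) in the low tumours with tamoxifen. Without tamoxifen the values were 0.406 to 7.86 CPM (median 1.80) and 0.238 to 1.68 CPM (median 0.993). The groups are separate with tamoxifen and overlap without it. Its log2 fold change was 1.71 ± 0.26 (SE; adjusted p = 0.000486 in edgeR). Rtp4, an interferon-induced chaperone of G protein-coupled receptors, had 0.677 to 6.40 CPM (median 2.46) in the high and 0.259 to 2.56 CPM (median 0.829) in the low tumours. Those groups overlap too, while 19 of 20 high tumours lay above the low median, and the log2 fold change was 1.36 ± 0.22 (adjusted p = 0.000738 in edgeR). Xaf1, a factor that opposes inhibitors of apoptosis, had 1.62 to 11.1 CPM (median 4.85) against 0.354 to 3.14 CPM (median 2.25), which differ by 1.23 ± 0.21 on the log2 scale (edgeR, adjusted p = 0.00194).

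Parp14, an ADP-ribosyltransferase, had 2.30 to 10.4 CPM (median 5.05) in the high and 1.46 to 5.81 CPM (median 2.46) in the low tumours, a log2 fold change of 1.00 ± 0.16. Lgals3bp, a secreted galectin-binding glycoprotein, had 14.1 to 53.3 CPM (median 31.995) against 7.83 to 34.2 CPM (median 16.5), a change of 0.90 ± 0.14. Both were of similar size in the treatment groups: Parp14 had 0.99 with and 1.01 without tamoxifen, and Lgals3bp 0.93 and 0.86. Bst2, tetherin, which holds budding virus at the cell surface, rose by 0.96 ± 0.21, a call that was lost with title period as a covariate (0.93, adjusted p = 0.0632 in edgeR). Ifitm3, which blocks viral entry, rose by 0.81 ± 0.18. Its call was lost with title period as a covariate (0.70, adjusted p = 0.219 in edgeR), with 5 tumours at each end (adjusted p = 0.115) and with ranks from Ifit1 alone (adjusted p = 0.0841). Trim30a, Ifi27 and Ifitm3 had adjusted p-values of 0.0151, 0.0299 and 0.0374 in edgeR.

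Isg15, a ubiquitin-like protein joined to other proteins after interferon, did not pass (1.25 ± 0.29, adjusted p = 0.0507 in edgeR). It had 0.269 to 8.05 CPM (median 1.87) in the high and 0.119 to 2.53 CPM (median 0.867) in the low tumours. Ifit3b passed with 1.34 ± 0.24, but it is a near copy of Ifit3 and the counting could have split reads between them, so its value is uncertain. Ifit2 is a neighbour of the score genes, and whether it shares reads with them was not tested. It had 27.5 to 76.0 CPM (median 44.4) in the high and 15.1 to 79.2 CPM (median 43.2) in the low tumours. Its log2 fold change was 0.03 ± 0.13. Ifit2 thus showed groups that overlap throughout.

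**Figure D3:**
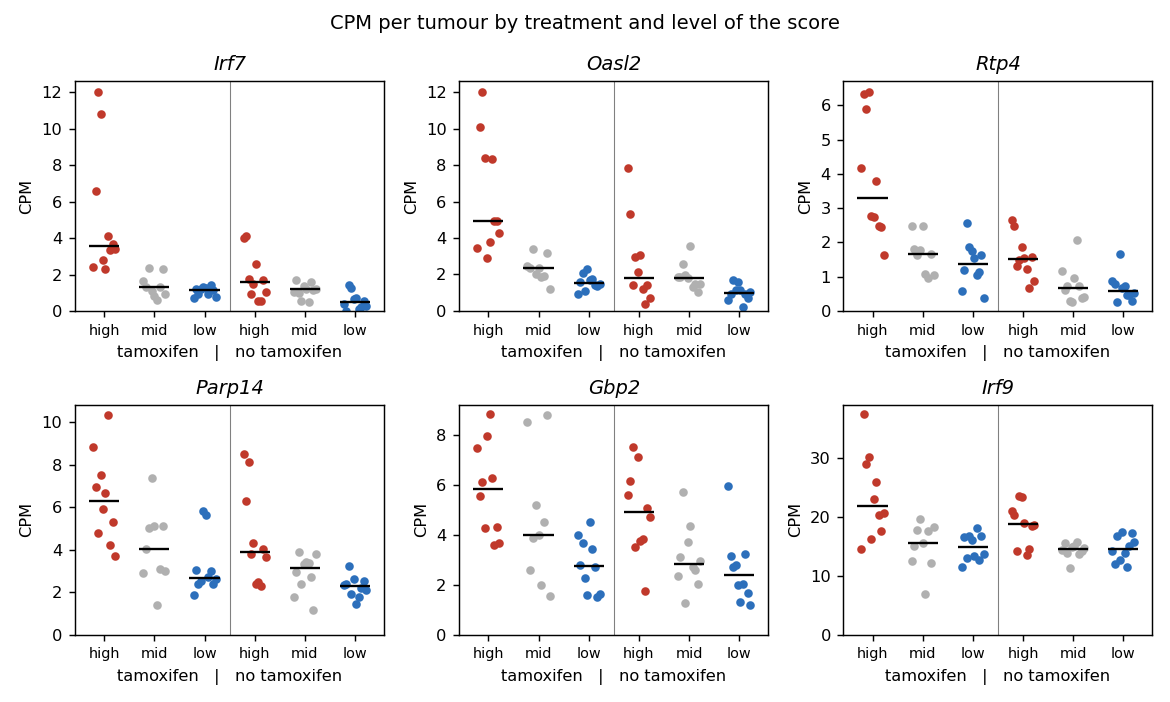
CPM (linear axis from 0) of 6 genes in each of 59 tumours, by treatment and by high, middle (mid) or low score; points are tumours and bars are medians. Irf7 of the high tumours with tamoxifen lies between 2.32 and 12.0 CPM, above the low tumours of that group, while Irf9 overlaps between levels.

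Guanylate-binding proteins (GBPs) and immunity-related GTPases (IRGs), which attack vacuoles of intracellular microbes, had a median log2 fold change of 0.92 over 9 tested genes. All 9 were above 0, 3 passed and 8 were higher at an unadjusted p under 0.05, beside 818 of all 14143 genes (5.78%). Gbp2 had 1.76 to 8.84 CPM (median 5.32) in the high and 1.20 to 5.96 CPM (median 2.72) in the low tumours, a log2 fold change of 0.96 ± 0.18 (SE; adjusted p = 0.00476 in edgeR). Gbp3 had 1.76 to 11.7 CPM (median 5.75) against 1.07 to 5.43 CPM (median 2.45), a change of 1.07 ± 0.21. Irgm2 had 0.948 to 7.87 CPM (median 2.83) against 0.596 to 3.20 CPM (median 1.73), a change of 0.97 ± 0.19. In all 3 genes the groups overlap: between 1.76 and 5.96 CPM for Gbp2, 1.76 and 5.43 CPM for Gbp3, and 0.948 and 3.20 CPM for Irgm2. The genes Gbp4 and Gbp7 are close relatives, and reads of these families may be split between members, so a single member's value is uncertain.

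The promoters of 17 of the 22 risen genes were found in the RefSeq table (GRCm38.p6, windows of 250 bases before to 50 bases after the start), which serves for letters only, since the files name another build. The interferon-stimulated response element was searched as GAAANNGAAA, with its reverse strand form TTTCNNTTTC, and both searches could overlap. It stood in 8 of the 17, beside 1131 of all 32851 promoters (3.44%) and 373 of 10462 tested genes with a promoter (3.57%). The gamma-activated site, searched as TTCNNNGAA, stood in 3 of 17, beside 8.30% of all promoters. A promoter without a match says only that these letters are not in its window. Promoters of 4 risen genes that hold the response element before the start are shown. Ifit3b and Trim30a, which also hold it before the start, are not shown. A second Gbp3 promoter, also not shown, holds 0 elements. In the letters below the element is in capitals:
Gbp2 promoter, chr3:142620413-142620712, plus strand: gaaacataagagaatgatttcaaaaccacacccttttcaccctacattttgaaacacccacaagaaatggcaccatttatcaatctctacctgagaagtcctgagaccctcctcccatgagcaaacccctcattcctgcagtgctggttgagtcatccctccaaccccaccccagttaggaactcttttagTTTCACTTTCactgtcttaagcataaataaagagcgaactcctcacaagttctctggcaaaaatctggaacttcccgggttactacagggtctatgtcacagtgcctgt
Gbp3 promoter, chr3:142559794-142560093, plus strand: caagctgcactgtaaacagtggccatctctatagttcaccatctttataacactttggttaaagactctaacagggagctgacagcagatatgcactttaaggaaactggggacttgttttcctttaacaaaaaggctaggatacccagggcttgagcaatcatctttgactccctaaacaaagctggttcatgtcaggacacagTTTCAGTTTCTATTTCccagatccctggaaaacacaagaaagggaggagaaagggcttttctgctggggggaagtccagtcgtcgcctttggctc
Irgm2 promoter, chr11:58214727-58215026, plus strand: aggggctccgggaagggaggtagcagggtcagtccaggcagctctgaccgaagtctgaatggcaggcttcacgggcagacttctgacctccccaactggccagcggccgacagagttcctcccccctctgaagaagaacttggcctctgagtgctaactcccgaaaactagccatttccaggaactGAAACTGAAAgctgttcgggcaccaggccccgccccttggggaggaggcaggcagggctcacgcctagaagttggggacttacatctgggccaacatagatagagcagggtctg
Bst2 promoter, chr8:71537423-71537722, minus strand: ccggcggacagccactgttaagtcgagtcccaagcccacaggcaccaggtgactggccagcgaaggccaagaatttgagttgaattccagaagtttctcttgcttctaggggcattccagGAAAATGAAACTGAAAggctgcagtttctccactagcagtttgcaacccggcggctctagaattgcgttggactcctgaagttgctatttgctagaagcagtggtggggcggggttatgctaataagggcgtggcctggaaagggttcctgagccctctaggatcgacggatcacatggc
The Gbp2 element starts 59 bases and the Irgm2 element 64 bases before the start of the gene. The Gbp3 and Bst2 promoters shown each hold 2 overlapping elements, which appear as 1 run of capitals.

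No antigen presentation gene passed. Of 19 tested MHC class I genes 17 were above 0, none passed and the median was 0.23. At an unadjusted p under 0.05, 8 of the 19 were higher, beside 5.78% of all genes. Nearest to the threshold was H2-Q4, with a change of 0.71 ± 0.16 (adjusted p = 0.0562 in edgeR). H2-K1, a classical class I heavy chain, had 32.2 to 105 CPM (median 49.2) in the high and 27.0 to 61.1 CPM (median 35.2) in the low tumours, a change of 0.49 ± 0.14 (adjusted p = 0.171 in edgeR). MHC class II genes, made by microglia and dendritic cells, had a median of 0.87 over 6 tested genes, all above 0, and none passed. At an unadjusted p under 0.05, 4 of the 6 were higher. Cd74, the invariant chain of class II, had 1.10 ± 0.38 (adjusted p = 0.281 in edgeR). Class I genes share long stretches of sequence, so single members are uncertain.

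No cytokine, chemokine or NF-kB target passed. Of 8 tested chemokines and cytokines 7 were above 0, with a median of 0.49. At an unadjusted p under 0.05, 4 of the 8 were higher, beside 5.78% of all genes. Cxcl10, an interferon-induced chemokine, had 0.940 to 16.8 CPM (median 3.58) in the high and 0.133 to 6.71 CPM (median 1.11) in the low tumours, a change of 1.49 ± 0.36 (adjusted p = 0.0705 in edgeR). Of NF-kB targets 12 of 12 were above 0 (median 0.39), 0 passed and 5 were higher at an unadjusted p under 0.05. Of the complement genes, which tag cells for removal, all 11 tested were above 0 (median 0.30) and 1 passed: C4b, the C4 component, with 27.9 to 163 CPM (median 69.3) against 8.51 to 65.4 CPM (median 33.0), a change of 1.13 ± 0.22 (adjusted p = 0.00708 in edgeR). Its call was lost with title period as a covariate (0.92, adjusted p = 0.0964 in edgeR).

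Feedback inhibitors did not move together: 4 of 9 tested were above 0, the median was -0.02 and 1 passed. That gene is Ptpn6, the phosphatase SHP-1 of blood-derived cells, with 3.75 to 10.8 CPM (median 5.28) in the high and 2.13 to 6.26 CPM (median 3.60) in the low tumours, a change of 0.63 ± 0.13. Its call was lost with title period as a covariate (0.63, adjusted p = 0.0589 in edgeR). Among genes outside the lists, Nlgn2, a synaptic adhesion protein, rose by 0.28 ± 0.06, with 198 to 262 CPM (median 218) in the high and 143 to 261 CPM (median 179) in the low tumours. The call of Nlgn2 depended on how the tumours were chosen: it was lost with 14 tumours at each end (0.17, adjusted p = 0.440 in edgeR), with 5 (adjusted p = 0.167), with ranks from the mean log2 CPM (adjusted p = 0.111) or from Ifit1 alone (adjusted p = 0.0825), and with the continuous score (adjusted p = 0.0689). It was also lost with title period as a covariate (adjusted p = 0.0632 in edgeR). Tent5a, a poly(A) polymerase, rose by 0.60 ± 0.13, and its call was lost with sex (adjusted p = 0.0501 in edgeR) or title period (adjusted p = 0.156) as a covariate. The predicted gene Gm43302 rose by 1.84 ± 0.37. Tomm70a, an import receptor of mitochondria, was the gene that fell, by 0.19 on the log2 scale (adjusted p = 0.0407 in edgeR); it had 193 to 259 CPM (median 206) in the high and 189 to 287 CPM (median 246) in the low tumours. Its groups overlap widely, and its call was lost in 26 of the 40 fits that left out 1 tumour.

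**Figure D4:**
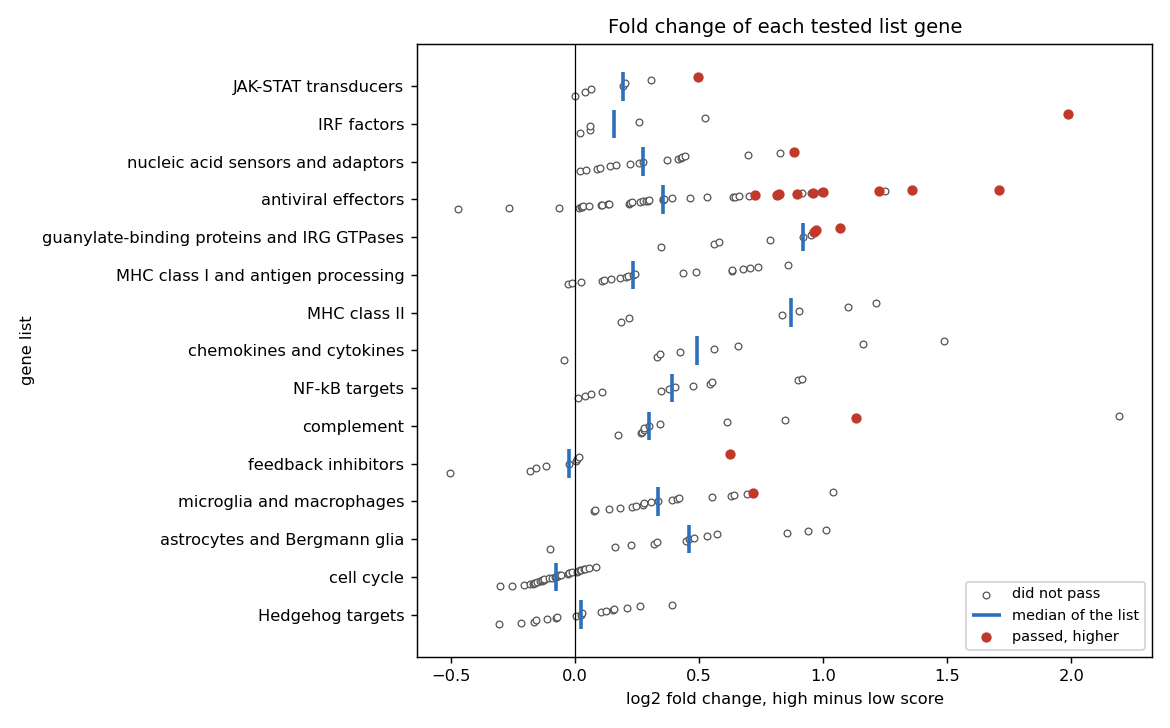
Log2 fold change, high minus low, of each tested gene (points) of 15 lists; filled red points passed at an adjusted p of 0.05 in edgeR and blue bars are list medians. GBP and IRG genes have the highest median among these lists, 0.92, and cell cycle genes lie around -0.08.

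Markers of other cells were read beside these genes. In bulk tissue, fewer cells of a type and less RNA per cell cannot be told apart. Of 19 tested microglia and macrophage markers, 19 were above 0, beside 7244 of all 14143 genes, and the median was 0.33. At an unadjusted p under 0.05, 9 were higher, beside 818 of all genes (5.78%). The leukocyte surface phosphatase Ptprc was the 1 that passed (0.72 ± 0.16, adjusted p = 0.0328 in edgeR). The call of Ptprc was lost with title period (adjusted p = 0.0657 in edgeR) or the cerebellar marker score (adjusted p = 0.0560) as a covariate, and in 18 of the 40 fits that left out 1 tumour. Ptprc had 3.53 to 13.8 CPM (median 8.35) in the high and 2.48 to 7.50 CPM (median 4.91) in the low tumours. Summed over the list, markers had 294 to 876 CPM (median 472) in the high and 216 to 575 CPM (median 378) in the low tumours. T and NK cell markers were sparse, with 1 of 17 tested and a summed level of 2.34 to 11.9 CPM against 1.28 to 10.0 CPM. Of 12 monocyte and neutrophil markers 3 could be tested and of 10 B cell markers 2, and none of these passed. Of 5 tested dendritic cell markers 1 passed, Bst2, which is also in the antiviral list.

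When the microglia marker score of each tumour, its mean log2 CPM over that list with Ptprc among the genes, was added as a covariate, 2 genes were called higher: Irf7 (1.94, adjusted p = 0.0117 in edgeR) and Oasl2 (1.67, adjusted p = 0.0117 in edgeR). The other 20 genes lost the call. Their fold changes were still above 0, from 0.30 for Nlgn2 to 1.43 for Gm43302, and Irf9 moved from 0.50 to 0.55. Gbp2 had 0.64 in place of 0.96 (adjusted p = 0.177 in edgeR), and Lgals3bp had 0.67 (adjusted p = 0.0530 in edgeR). The part that microglia have in the result was not tested.

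**Figure D5:**
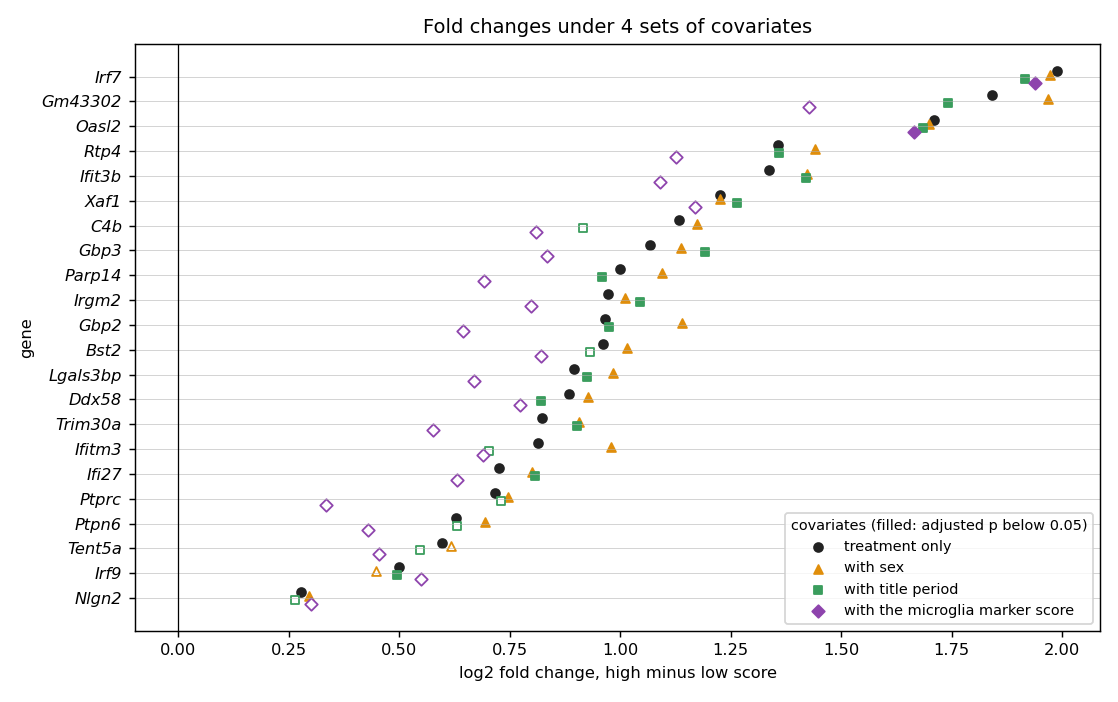
Log2 fold change, high minus low, of the 22 risen genes with treatment alone and with sex, title period or the microglia marker score added to the model; filled symbols have an adjusted p below 0.05 in edgeR. Only Irf7 and Oasl2 stay filled under all 4 models.

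In the other lists described here no gene passed. Cell cycle genes had a median of -0.08 over 32 tested, 24 below 0, and 0 passed. Hedgehog targets and pathway members had 0.03, granule neuron differentiation genes -0.03 and p53 targets -0.06, with 0 passing in each, beside 0.00447 for all genes. Genes that silence endogenous retroviruses, a known internal source of nucleic acid, had -0.01 over 12 tested, 0 passed and 0 were higher or lower at an unadjusted p under 0.05. Kcnb2, the potassium channel subunit of the series title, had 3.12 to 12.9 CPM (median 8.08) in the high and 2.83 to 11.3 CPM (median 6.59) in the low tumours and did not pass (0.25 ± 0.16, adjusted p = 0.526 in edgeR). Astrocyte markers had a median of 0.46 with 12 of 13 above 0, and none passed. At an unadjusted p under 0.05, 5 of the 13 were higher, beside 5.78% of all genes.

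Rows that name parts of the transposon construct were compared apart. Their summed level had a median of 3.12 CPM (0.522 to 201) in the high and 2.82 CPM (0.375 to 12.0) in the low tumours. The means were 20.0 ± 46.5 and 4.35 ± 3.69 CPM (SD, n = 20 each; two-sided permutation test within treatment, p = 0.124). No tamoxifen replicate 13 alone gave 201 CPM from 1367 reads, and without it the high mean was 10.5 CPM.

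Fewer genes passed within each treatment group. With tamoxifen 9 genes of 14143 rose (0.0636%) and 0 fell, and without it 0 passed in either direction, while 707 genes were higher at an unadjusted p under 0.05 (5.00%) and 517 lower. The 9 are Irf7, Oasl2, Rtp4, Ddx58, Xaf1, Irgm2, Gbp3 and 2 genes outside the 22, the antiviral gene Slfn8 (1.41 ± 0.29) and the IRG Igtp (1.52 ± 0.29). The difference between the treatment groups was tested as such, and in edgeR 0 genes passed at an adjusted p of 0.05 and 315 at an unadjusted p. For Irf7 the fold change was 2.23 ± 0.40 with and 1.70 ± 0.43 without tamoxifen, a difference of 0.53 ± 0.61 (adjusted p = 1.00 in edgeR). For Igtp the difference was 1.26 ± 0.42 (adjusted p = 1.00 in edgeR), with 0.25 ± 0.30 in the tumours without tamoxifen.

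The 19 labelled tumours outside both groups, 9 with and 10 without tamoxifen, were ranked by the same score and fell between the limits, so they are not independent of the rule. There the log2 score was fitted as a slope, which has a narrow range to work with. Of 13721 genes 0 passed in edgeR, and 308 had an unadjusted p under 0.05, of which 190 rose (1.38%). Of the 22 genes, 20 were tested there and 18 had a slope above 0, beside 51.8% of all genes, with a median slope of 0.36 log2 CPM per doubling of the score. At an unadjusted p under 0.05, 1 of the 20 rose, Tent5a (p = 0.00919 in edgeR). The lists did not all rise in these tumours. Antiviral effectors had 23 of 43 slopes above 0 (median 0.04), and 0 rose or fell at that unadjusted p. Nucleic acid sensors had 7 of 16 slopes above 0 (median -0.05) and JAK-STAT transducers 1 of 7 (median -0.17). GBP and IRG genes had 7 of 8 above 0 (median 0.28) and MHC class I genes 15 of 17 (median 0.22). Irf7 and Rtp4 did not pass the count filter there, and without a filter their slopes were 0.01 (p = 0.980 in edgeR) and 0.88 (p = 0.236 in edgeR). Irf9 had a slope of -0.10 (p = 0.729 in edgeR without a filter), and Cxcl10, a chemokine not among the 22, had 2.28 (p = 0.0179 in edgeR). Of 6 chemokines and cytokines tested there, 4 slopes were above 0. At an unadjusted p under 0.05, 1 of these genes rose and 1 fell.

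The 10 tumours of the Math1-Cre; SmoM2 model, 7 labelled Kcnb2 wild-type and 3 Kcnb2 knockout, are another model to which the rule was not applied. The genotype of wild-type replicate 3 is in doubt, since its title ends like those of the knockouts while its label says wild-type, and its column in the counts lacks that ending. Math1-Cre switches on SmoM2, an active Smoothened, in granule neuron progenitors. Their libraries held 23923453 to 39387125 reads. The score was 1.02 to 8.68 CPM in 9 tumours and 41.7 CPM in wild-type replicate 7. That tumour was the highest of the 10 in 20 of the 21 genes tested there, with Nlgn2 as the exception. Irf7 had 15.7 CPM there and 0.529 to 1.92 CPM in the other 9, Oasl2 27.3 CPM against 1.03 to 3.57 CPM, Gbp2 38.9 CPM against 0.883 to 5.22 CPM, and C4b 250 CPM against 18.0 to 51.6 CPM.

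With a covariate for how the title begins, 76 of 19320 genes rose with the log2 score (0.393%) and 9 fell in edgeR. Of the 22 genes 21 were tested, 21 had a slope above 0, beside 50.2% of all genes, and 9 passed: Irf7, Oasl2, Rtp4, Gbp2, Gbp3, Irgm2, Ifi27, Tent5a and Ifit3b, the last uncertain. Of 12 tested GBP and IRG genes 10 rose, and of 55 antiviral effectors 12. Without wild-type replicate 7, 0 genes passed in either direction, 18 of the 21 slopes were above 0 and each of these 9 genes had an unadjusted p of 0.0334 or less. At an unadjusted p under 0.05, 2293 of 19834 genes rose there (11.6%). For Irf7 the slope was 0.84 with that tumour and 0.59 (p = 0.00232 in edgeR, adjusted p = 0.135) without it. For Oasl2 it was 0.80 with and 0.63 (adjusted p = 0.139 in edgeR) without it. Xaf1 had a slope of 0.18 with it and -0.28 (p = 0.281 in edgeR) without it, and Irf9 had 0.13 and -0.05. The calls in this model therefore rest on 1 tumour.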

How the data were processed

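Bulk polyA RNA libraries of mouse medulloblastomas were measured. The authors deposited 1 table of whole-number read counts per gene for each model; STAR 2.5.4b and mm9 are named in the submitters' processing notes, with no role given. Which program counted reads, with which annotation and strand setting, is not stated in the labels. Rows without a mouse gene identifier (10 construct rows) stayed out of library sizes and gene tests, and no columns were left unused (0). Gene symbols came from an Ensembl name table, which matched 32882 of 37954 gene rows with 99.3% of the counts.

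Counts were tested with edgeR 4.0.16 in R 4.3.3 (quasi-likelihood, robust, TMM, filterByExpr with a smallest count of 10, Benjamini-Hochberg over all genes, adjusted p of 0.05), with treatment as covariate. In the main test the filter grouped tumours by level and treatment, so a gene could pass it through high tumours alone. Ifit1 and Ifit3 stayed in the library sizes and the fit, and were left out of the adjustment and of all counts. The standard error is the size of the log2 fold change divided by the square root of F. Log2 CPM used a prior count of 2. DESeq2 1.42.0 was an alternative. Permutation tests drew 100000 resamples. Sex was read from 4 Y genes, with over 10 CPM marking a male. On simulated data with the real means, 14074 genes and 200 changed genes, the main test recovered 68% of 1.5-fold and 84% of 2-fold changes. There were 8 false calls among 160. The changed genes were drawn from all levels, without a treatment effect, and gave more calls than the real data. These shares therefore do not give the recovery for genes of low CPM in the real comparison.

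The rule for named genes was the 10 highest and 10 lowest called genes by fold change past a mean log2 CPM of 1 whose symbol is not a predicted one, up to 4 per pathway list and 2 per cell type list by p, and Ifnb1, Ifng, Ifnar1, Ifnar2, Stat2, Irf7, Irf9 and Kcnb2. Another gene that the rule names is not reported here. List genes that did not pass, and Gm43302, Isg15, Slfn8, Igtp and Tent5a where outside the rule, were chosen after their values were seen. The members and the lists were chosen with earlier results of these data known. Lists were described by counts and medians, without a set test.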

Additional observations from a re-analysis of the deposited data

Results flagged for a closer look

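The check for a tumour far from its group covered 129 groups of 7 or 10 tumours on the log2(CPM + 0.5) scale, and 15 stood out; chance gives about 1 in 20. The value is the gap to the nearest tumour divided by the range of the group. Of 25 groups of the SmoM2 wild-type tumours 9 stood out, each by its highest tumour, replicate 7: Irf7 (0.708), Gbp3 (0.714), Gbp2 (0.576), Oasl2 (0.662), Trim30a (0.586), Tent5a (0.619), Ddx58 (0.620), Irgm2 (0.651) and C4b (0.602).

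Among the Lazy Piggy tumours, the construct rows of no tamoxifen replicate 13 lay far above the other high tumours of that group (0.594). In the low tumours with tamoxifen, Gm43302 in replicate 9 (0.617) and Isg15 in replicate 16 (0.498) were high, and Xaf1 in replicate 24 was low (0.667). In the low tumours without tamoxifen, Ifit3b was high in replicate 26 (0.555). Ptprc was low in tamoxifen replicate 6 of the high tumours (0.550). No cause was tested.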

How the results depend on the processing

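Of the 22 genes higher in the high tumours, every 1 was called with RLE size factors (22 called) and DESeq2, which called 54 higher and 28 lower; 21 were called without the count filter. Counts of higher genes with other changes were 74 with the continuous score in 59 tumours (19 of the 22 among them) and 2 with the microglia marker score as a covariate. With 5 tumours at each end 25 were higher (15 of the 22), with 14 at each end 16 (14 of the 22), with ranks from the mean log2 CPM 29 (21 of the 22) and with ranks from Ifit1 alone, chosen after seeing the data, 25 (19 of the 22). With 14 at each end Irf9, Ptpn6, Trim30a, Nlgn2, Ifi27, Irgm2, C4b and Gm43302 lost the call, and with 5 Irf9, Ptpn6, Ifitm3, Tent5a, Nlgn2, Ifi27 and Gm43302. The count of lower genes, 1 in the report, was 2 with RLE size factors, 2 without the filter, 6 with sex, 4 with the continuous score, 3 with sex and title period (chosen after seeing the data), and 0 with title period, the cerebellar marker score, the microglia marker score, 5 or 14 tumours at each end, or ranks from the mean log2 CPM; the cause was not tested. Leaving out each of the 40 tumours gave 17 to 31 higher and 0 to 11 lower genes. Of the 22, Ptprc lost its call in 18 of these fits, Ifitm3 in 17, Tent5a in 23, Ifi27 in 4 and Bst2 in 3, and the other 17 in none. The largest adjusted p of these 5 (edgeR) was 0.0800, for Ifitm3 without high tamoxifen replicate 7. With title period as a covariate 15 of the 22 were called, with sex 20, and with both 15. Ifnar1, at -0.02, changed sign to 0.00277 with the cerebellar score, 0.0199 with 5 tumours at each end and 0.00927 with the continuous score, and ran from -0.0419 to 0.00181 over the 40 left-out fits, with 0.000932 in the other that turned positive. In the SmoM2 tumours genotype as a covariate, with replicate 3 taken as labelled, gave 225 rising and 18 falling genes, and leaving out wild-type replicate 3 or 7 gave 0 to 43 rising and 0 to 5 falling, with 0 in both directions without replicate 7 (an alternative chosen after seeing the data). Slopes in the middle tumours gave 0 under every setting run. The planned fit without tamoxifen replicate 14 within the tamoxifen contrast was not run, since that tumour is in neither group. No paired analysis was possible because replicate numbers were given in accession order and the tumours of the groups are not matched. Reads behind the score, 5 in the lowest tumour, limit the ranks, and ligand levels of 1 or 2 reads cannot be compared.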

Other observations

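Markers of Purkinje cells and interneurons, which come from cerebellar tissue beside the tumour, had a median log2 fold change of 1.25 over 12 tested genes, all above 0, and 0 passed in edgeR. Their median was -0.14 within the tamoxifen tumours and 3.33 within the others. Without tamoxifen, high replicates 11 and 3 had a summed level of 1940 and 1505 CPM, and the other high tumours 74.6 to 336 CPM. The low tumours without tamoxifen had 82.5 to 233 CPM, so the 3.33 rests on those replicates. Over all 40 tumours, 0 of these genes were higher at an unadjusted p under 0.05. Oligodendrocyte markers had a median of 0.46 over 12 tested genes, 9 above 0 and 3 below, and ran from -0.20 to 1.93. Of these 12, 3 were higher at an unadjusted p under 0.05, beside 5.78% of all genes. Neither list was called.

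A Lazy Piggy tumour without a treatment label entered no comparison. Its score was 8.07 CPM from 61 reads (exact 95% Poisson interval 6.18 to 10.4), with Irf7 at 0.926 CPM, Oasl2 at 1.72 CPM and Isg15 at 1.06 CPM.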
